A study of Mus musculus with 12 samples.

Results

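Pro-B cells that lack a working Sox4 gene were compared in an immortalized and a primary state. The comparison used 6 of the 12 arrays of the series, chosen by their titles. The 3 arrays labelled Sox4fl/fl SE-Cre HA held progenitor B cells immortalized with p190 Bcr-Abl, and the 3 arrays labelled Sox4fl/fl SE-Cre held progenitor B cells with no such immortalization in their labels. They are called SE-Cre HA and SE-Cre cells here. The series was laid out to compare Sox4 states within each cell kind, and its design text does not name this comparison across them. Both groups carried a floxed Sox4 gene and SE-Cre, both were of strain C57BL/6, and both were derived from embryonic fetal liver. The remaining arrays held immortalized cells labelled SE-Cre HA-Sox4, with the same floxed gene, and primary Sox4fl/fl cells without SE-Cre, in triplicate as well. The sources used here do not give the promoter behind SE-Cre, the age of the embryos, the nature of the HA construct or the number of immortalized clones. Separate animals or cultures are not mentioned for the triplicates either. The p-values therefore reflect only how far these samples spread, and that spread may be technical.

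Pro-B cells are the early B lineage stage at which immunoglobulin heavy chain genes are assembled. They normally depend on interleukin 7 and on stromal contact, with the receptor tyrosine kinase Kit among the receptors they use. The p190 form of Bcr-Abl is a fusion tyrosine kinase known from acute B lymphoblastic leukaemia. It is always active, it feeds the Ras and MAP kinase, STAT5 and PI3 kinase pathways, and it lets mouse pro-B cells grow in culture without added cytokine. The outgrowth of Abl-transformed B cell precursors is known to be restrained by Arf and p53.

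The immortalized cells were read in the array set of the gain experiment and the primary cells in that of the loss experiment. Array set and cell kind therefore cannot be told apart in any difference between the 2 groups. Median intensity before normalization was 114.5 to 136.7 on the SE-Cre HA arrays and 84.37 to 86.91 on the SE-Cre arrays, while 36.7% to 37.4% and 36.1% to 36.8% of probes were detected. Over kept probes, the Pearson correlation was 0.994 among SE-Cre HA arrays, 0.985 to 0.987 among SE-Cre arrays and 0.904 to 0.912 between the groups. Detection is called within each array against its own background, and ranks are also taken within an array, so both are given beside the intensity differences. In bulk samples, fewer cells of a type and less RNA per cell cannot be told apart.

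Sox4 itself served to check the labels. Its brighter probe read 4.38, 4.73 and 4.36 in SE-Cre HA cells, with no detection, and 4.923, 4.997 and 4.424 in SE-Cre cells, with detection on 1 of 3 arrays (log2 normalized intensity). The other probe was detected on none of the 6. Both groups were thus at or near background for Sox4, whereas the brighter probe was detected on 3 of 3 HA-Sox4 and 3 of 3 Sox4fl/fl arrays. Its mean level there, with the 12 arrays normalized together, was 5.145 in HA-Sox4 cells, not far above background, and 11.37 in Sox4fl/fl cells. Neither probe was kept for testing, and no source used here gives their place in the transcript. Of the genes in the series title, Rag2 and both probes of Csnk1e, and with them Dntt, the terminal transferase gene, were likewise detected on none of the 6 arrays and on all 6 of the others. Rag1, a subunit of the recombinase, read 6.62, 6.17 and 6.11 in SE-Cre HA cells and 5.55, 6.43 and 5.70 in SE-Cre cells. The groups overlapped, and the log2 difference of 0.41 (SE 0.24) did not pass (adjusted p = 0.18). Without SE-Cre replicate 2, the one high array of its group, the difference was 0.68 and passed (adjusted p = 0.0169). It did not pass with any other array left out.

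Markers of the pro-B stage were bright in both groups. The 6 markers measured had a median within-array percentile of 96.1 in SE-Cre HA and 98.0 in SE-Cre cells among the genes tested. None of the 6 rose and 4 fell, while 26.1% of all genes tested rose and 32.2% fell. The 4 were Cd79b, Blnk, Il7r and Ebf1, the last 2 with probes that disagreed in direction. The median log2 difference was -0.49, and Igll1 and Vpreb1, the surrogate light chain genes, did not pass, at 0.01 and 0.00. The remaining markers of this list were not analysed here. Of the markers of other cell types, all 10 of hepatocytes failed the detection filter. The myeloid list had 3 of 18 members kept, with Mpo, Elane and Csf1r among those not kept, and 11 members were detected on none of the 6 arrays. Summed over the whole myeloid list, linear intensity was 1115 to 1185 in SE-Cre HA and 1393 to 1740 in SE-Cre cells. For the erythroid list these sums were 2834 to 3217 against 1973 to 2501, and 8 of its 12 members were detected on no array. Its 2 kept members were Epor, which did not pass, and Car2, whose brighter probe read 11.46 against 10.89 in log2. The other kept probe of Car2 read 9.76 against 7.08. Hba-a1, Alas2, Klf1 and Gata1 were not kept. The T and NK list gave 4262 to 4322 against 3392 to 3805, with Cd3e, Cd3d and Cd3g not kept. Of the 3 members kept, Cd8b1 was higher by 0.38 in SE-Cre HA cells, whereas Thy1 and Bcl11b were detected only in SE-Cre cells, opposite to the direction of the sum. The part of other cell types in the results was not tested.

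Of 8891 genes tested, 5186 (58.3%) passed an adjusted p of 0.05 in limma. The count was 2324 higher (26.1%) and 2862 lower (32.2%) in SE-Cre HA cells, of which 979 (11%) and 811 (9.12%) differed at least 2-fold. In 5883 genes (66.2%) the 3 values of a group all lay on the same side of the other 3. With so many genes called, a call says little about any gene alone, and the counts of each gene list below are to be read against these shares. A list member detected in 1 group only passed the detection filter through the group where it is high and so had to differ. Counts over the members measured are therefore descriptions, and lists with such members have their counts given over the members detected on all 6 arrays as well. Of the 7324 genes detected on all 6 arrays, 25% rose and 34.9% fell. The median log2 difference over all genes was -0.08, so zero lay close to the middle of all genes.

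The genes least bound to normalization were those detected on every array of a group and on none of the other. There were 267 such genes (3%) for SE-Cre HA cells and 240 (2.7%) for SE-Cre cells. With detection called at a p under 0.01 in place of 0.05 these counts were 142 and 111. The genes named from them are the 15 that ranked highest, within the arrays that detected them, in each direction. Their difference is given as a lower bound against the lowest signal of any detected probe, and no test is drawn from it.

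**Figure D1:**
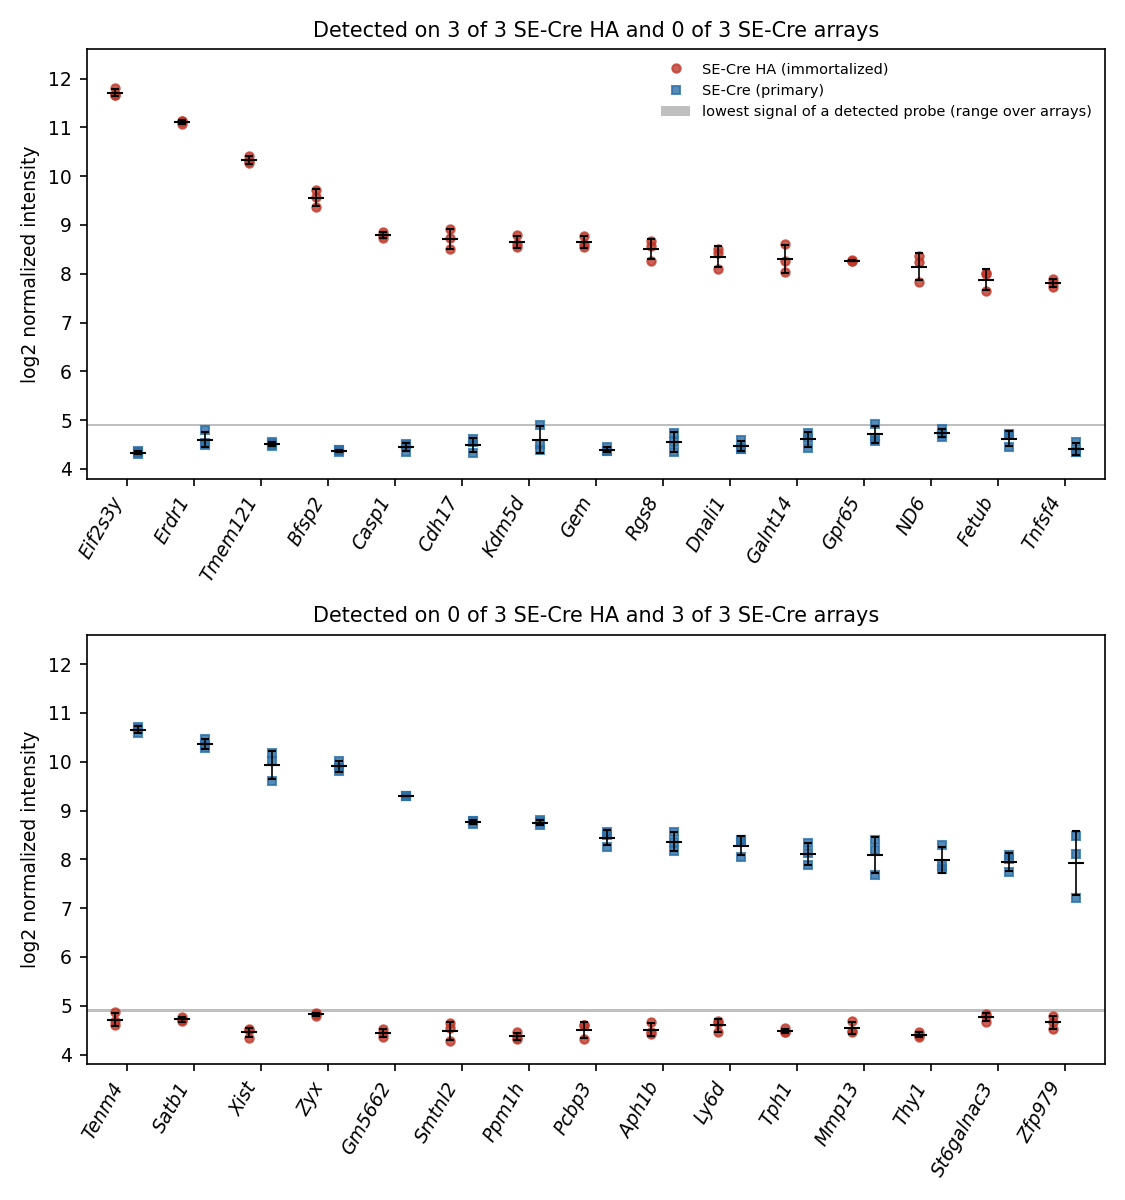
Log2 normalized intensity of the 15 highest-ranking genes detected only in SE-Cre HA cells (upper panel) and of the 15 detected only in SE-Cre cells (lower panel), with SE-Cre HA arrays as circles on the left of each gene, SE-Cre arrays as squares on the right, and bars for mean ± SD (n = 3). In every gene shown the undetected group lies within or below the grey band of the lowest detected signals, which spans 4.87 to 4.93, and the other group lies between 7.21 and 11.80.

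Among genes detected only in the immortalized cells, the Y-linked translation factor gene Eif2s3y read 11.80, 11.67 and 11.67 in SE-Cre HA cells and 4.36, 4.35 and 4.30 in SE-Cre cells, at least 111-fold higher. Kdm5d, a Y-linked histone demethylase gene, was at least 13.3-fold higher. Uty, another Y-linked gene, was detected on 3 of 3 SE-Cre HA and 2 of 3 SE-Cre arrays and had a log2 difference of 0.95 (SE 0.19, adjusted p = 0.00303). In the opposite direction stood Xist, the noncoding RNA that silences an X chromosome in female cells. It read 4.52, 4.503 and 4.35 in SE-Cre HA cells and 10.17, 10.01 and 9.61 in SE-Cre cells, at least 32.9-fold lower, and its 4 kept probes moved alike. All 3 immortalized samples thus carried Y-linked RNA without detected Xist, and all 3 primary samples carried Xist, at the 77.9 percentile of genes within their arrays on average. In the other groups, the brightest Xist probe was detected on 0 of 3 HA-Sox4 and 3 of 3 Sox4fl/fl arrays, and Eif2s3y and Kdm5d on 3 of 3 HA-Sox4 and 0 of 3 Sox4fl/fl arrays. One other Xist probe was detected on 1 HA-Sox4 array. The 281 genes tested on the X chromosome had a median log2 difference of -0.08, close to that of all genes.

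The other genes detected only in SE-Cre HA cells included signalling and immune genes. Tmem121, a membrane protein gene, was at 10.33 ± 0.07 in SE-Cre HA and 4.51 ± 0.04 in SE-Cre cells (SD, n = 3 each), at least 42.7-fold higher. Casp1, the caspase that processes interleukin 1 beta, was at 8.80 ± 0.06 against 4.45 ± 0.09 (SD, n = 3 each), at least 14.7-fold higher. Tnfsf4, which encodes the co-stimulatory ligand OX40L, was at least 7.42-fold higher, and Gpr65, a proton-sensing receptor gene, at least 10.2-fold. Regulators of signalling were Rgs8, of the RGS family that shortens G protein signals, with a bound of 12-fold, and Gem, a small GTP-binding protein gene, with 13.3-fold. Bfsp2, a lens filament gene, had a bound of 24.9-fold, the cadherin gene Cdh17 14-fold, the dynein light chain gene Dnali1 10.8-fold and the glycosyltransferase gene Galnt14 10.4-fold. Erdr1, whose 2 kept probes moved alike, was at least 73-fold higher, and Fetub, of the fetuin family, at least 7.81-fold. ND6, encoded by mitochondrial DNA, completed the list at 9.39-fold. It is the mitochondrial messenger that lies on the opposite strand from the others.

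In the primary cells the detected genes included adhesion, cytoskeletal and lymphoid genes. Tenm4, a teneurin adhesion gene, read 4.60, 4.68 and 4.86 in SE-Cre HA cells and 10.59, 10.67 and 10.72 in SE-Cre cells, at least 54.4-fold lower, and 3 of 3 probes moved alike. Satb1, a chromatin organizer of lymphoid cells, read 4.70, 4.77 and 4.68 in SE-Cre HA cells against 10.27, 10.47 and 10.34 in SE-Cre cells, at least 44.2-fold lower. Zyx, which encodes the focal adhesion protein zyxin, was at least 32.3-fold lower. Thy1, a surface glycoprotein of T cells and early progenitors, was at 4.41 ± 0.06 in SE-Cre HA cells and 7.99 ± 0.27 in SE-Cre cells (SD, n = 3 each), at least 8.56-fold lower. Ly6d, a marker of B lineage priming, was at least 10.5-fold lower. Enzyme genes here were Ppm1h, a phosphatase, with a bound of 14.6-fold, Aph1b, of gamma-secretase, 11.1-fold, Tph1, of serotonin synthesis, 9.33-fold, Mmp13, a collagenase, 9.19-fold, and the sialyltransferase gene St6galnac3, 8.32-fold. The predicted gene Gm5662 was at least 21.2-fold lower, Smtnl2 14.7-fold, the RNA-binding protein gene Pcbp3 11.7-fold and the zinc finger gene Zfp979 8.21-fold. Zfp979 had the widest spread of these in SE-Cre cells, with 8.47, 8.11 and 7.21.

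The other 2 groups of the series showed which of these genes could be read on the same array sets. Of the 267 genes detected only in SE-Cre HA cells, 180 (67.4%) were detected on 3 of 3 immortalized HA-Sox4 arrays and 23 (8.61%) on none. On the primary Sox4fl/fl arrays 126 (47.2%) of them were detected on none and 40 (15%) on all 3. Of the 40, 6 were among the 15 named above: Bfsp2, Casp1, Fetub, Gpr65, Rgs8 and Tmem121. Of the 240 genes detected only in SE-Cre cells, 119 (49.6%) were detected on none of the HA-Sox4 arrays and 70 (29.2%) on all 3. On the Sox4fl/fl arrays 134 (55.8%) were detected on all 3 and 38 (15.8%) on none. Of the 15 named, 6 were read on every HA-Sox4 array, namely Gm5662, Ly6d, Pcbp3, Satb1, St6galnac3 and Zyx. These 12 genes were thus read on arrays of the very set on which the other group did not detect them.

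**Figure D2:**
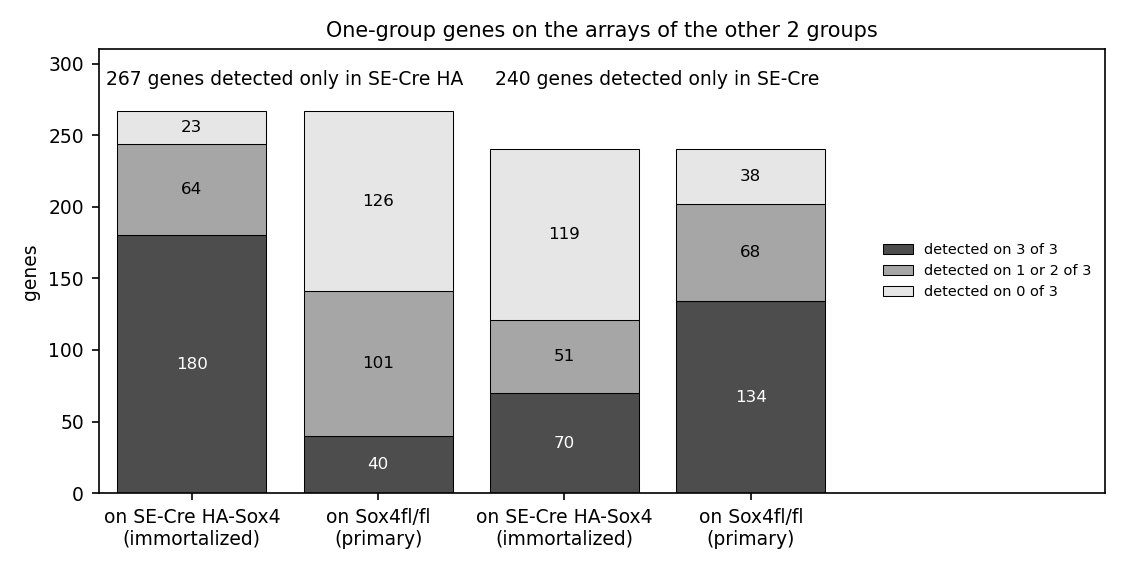
Numbers of genes, on the vertical axis, detected on 3, on 1 or 2, or on 0 of the 3 arrays of the immortalized SE-Cre HA-Sox4 and the primary Sox4fl/fl group, for the 267 genes detected only in SE-Cre HA cells (left pair of bars) and the 240 detected only in SE-Cre cells (right pair). The first set is mostly detected on HA-Sox4 arrays (180 genes on all 3) and the second mostly on Sox4fl/fl arrays (134 on all 3).

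Among genes detected on all 6 arrays, the 12 largest rises in the immortalized cells were of genes with varied roles. Lta, the gene of the cytokine lymphotoxin alpha, read 11.60, 11.42 and 11.34 in SE-Cre HA cells and 7.36, 7.13 and 7.69 in SE-Cre cells, which was a log2 difference of 4.06 (SE 0.16, adjusted p = 7.23e-07). Myb, a transcription factor gene of blood progenitors and early B cells, read 10.95, 11.08 and 10.45 against 6.66, 6.70 and 7.49 by its brightest probe. Its log2 difference was 3.88 (SE 0.25, adjusted p = 7.39e-06), and 0.73 and 0.48 by the other 2 probes, which also passed. The glucose transporter gene Slc2a6 rose by 3.84, the lysosomal protease gene Ctss by 3.83, S100a10, of the annexin-binding S100 family, by 3.78 and the copine gene Cpne2 by 3.65. Gpr18, a lipid receptor gene, rose by 3.21 and the autophagy gene Epg5 by 3.57. Hspa5, the chaperone BiP of the endoplasmic reticulum, rose by 3.58 and Cacybp by 3.60, with SDs among SE-Cre arrays of 0.93 and 0.72. For both the SE-Cre replicate 3 array was the lowest, at 6.01 and 6.61. Of the 12 largest rises 10 also lay wholly above in HA-Sox4 against Sox4fl/fl cells (27.7% of all genes did), and Gfi1b and Gpr18 overlapped.

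The largest fall among genes detected on all 6 arrays was that of Kit. It read 5.55, 5.41 and 5.91 in SE-Cre HA cells and 11.31, 11.16 and 10.98 in SE-Cre cells, at the 17.7 percentile of genes within SE-Cre HA arrays and the 90.5 percentile within SE-Cre arrays on average. The log2 difference was -5.53 (SE 0.16, adjusted p = 1.45e-07), and its other kept probe, detected on no SE-Cre HA array, fell as well. Slc5a9, a sugar transporter gene, had 6.00, 5.98 and 6.01 against 11.12, 10.98 and 11.01 (log2 difference -5.04, SE 0.11). The paralogous repressor genes Gfi1 and Gfi1b moved in opposite directions. Gfi1, a repressor needed in early lymphoid and myeloid cells, read 6.21, 6.25 and 6.29 in SE-Cre HA cells against 11.10, 11.06 and 11.62 in SE-Cre cells, which was a log2 difference of -5.01 (SE 0.16, adjusted p = 2.84e-07). Gfi1b, a repressor of erythroid and megakaryocytic cells, read 9.07, 9.05 and 9.05 against 5.30, 5.69 and 5.46 (log2 difference 3.57, SE 0.13, adjusted p = 4.65e-07). Metabolic genes that fell were Kynu, of tryptophan breakdown, at -4.07, and Gldc, of the glycine cleavage system, at -3.88. Log2 differences were also -3.82 for the adaptor gene Apbb1, -3.73 for Cyria, -3.70 for Mreg and -3.65 for Bex3. They were -3.51 for Rarres1, -3.45 for the exchange factor gene Rapgefl1 and -3.41 for Syndig1l. Between HA-Sox4 and Sox4fl/fl cells the log2 differences of Kit, Slc5a9 and Mreg were -2.70, -4.84 and -2.52, with no overlap of the groups. Of the 12 largest falls 10 lay wholly below in that pair (38.1% of all genes did), while Gldc (1.39) and Syndig1l (0.185) lay wholly above.

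A fetal programme list held the widest difference of all named genes. Igf2, the imprinted growth factor gene on chromosome 7, read 4.63, 4.98 and 4.96 in SE-Cre HA cells and 13.91, 14.002 and 13.86 in SE-Cre cells. It stood at the 5.59 percentile within SE-Cre HA arrays and at the 99.3 percentile within SE-Cre arrays. The log2 difference was -9.07 (SE 0.13, adjusted p = 5.32e-09). Its size depends on the background, as 2 of 3 SE-Cre HA arrays detected it. Of the 4 members measured, 3 fell and 1 rose. Arid3a, a DNA-binding factor gene of fetal B cells, fell by 1.09 (SE 0.22), and Lin28a, a regulator of let-7 microRNAs, was detected only in SE-Cre cells with a bound of 1.3-fold. Igf2bp3, which encodes a binding protein of Igf2 messenger RNA, rose by 0.68 (SE 0.14) by its brightest probe. Other kept probes gave 0.99, 0.66 and 1.29, which passed, and -0.15, which did not (adjusted p = 0.53). Detected on all 6 arrays were 2 members, of which 1 rose and 1 fell. Lin28b was detected on no array of either group and was not tested.

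**Figure D3:**
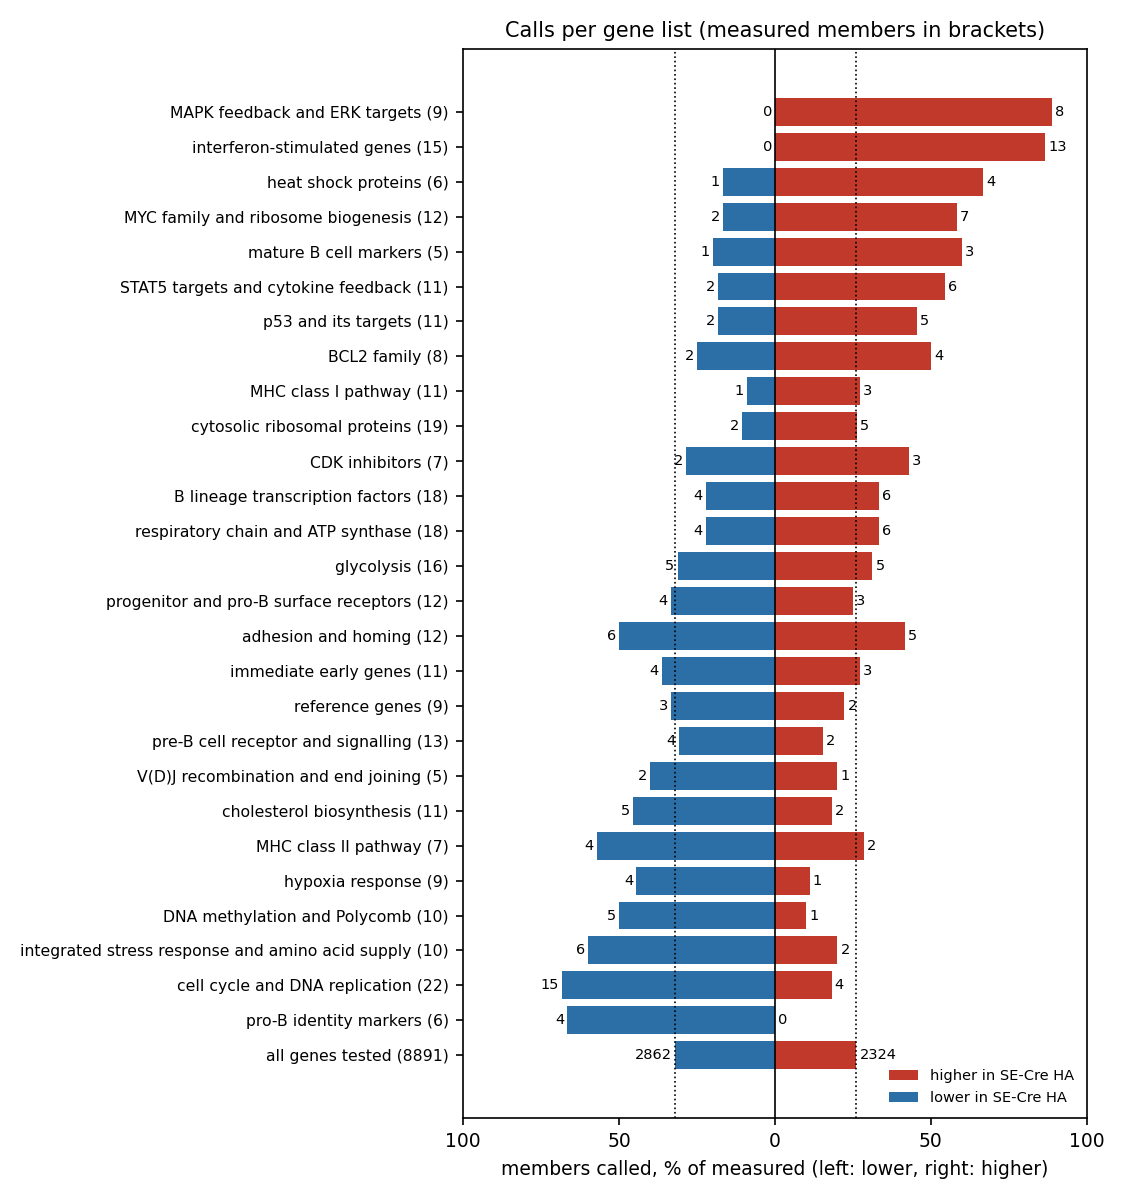
Share of the measured members of each gene list (number in brackets) that were called higher (red, to the right) or lower (blue, to the left) in SE-Cre HA than in SE-Cre cells, in percent, with counts at the bars and the shares over all genes tested as dotted lines. MAPK feedback genes (8 of 9) and interferon-stimulated genes (13 of 15) stand farthest to the right, and pro-B markers (4 of 6) and cell cycle genes (15 of 22) lie to the left of the dotted line for lower calls. The counts include members detected in 1 group only, 3 each in the MAPK and interferon lists.

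Most measured genes of the interferon response were higher in the immortalized cells. Of 15 measured members 13 rose and none fell, with a median log2 difference of 1.10 against -0.08 over all genes, and 8 rose at least 2-fold (background for calls in that direction 26.1%, or 11% with the fold). The 13 include 3 genes detected only in SE-Cre HA cells. Of the 7 members detected on all 6 arrays 5 rose and none fell, with a median of 0.81 against -0.12 over genes so detected. With no background correction 13 of the 15 rose and the median was 0.65. Type I interferon acts through STAT and IRF9 complexes that bind short GAAA repeats, called interferon-stimulated response elements, in the promoters of such genes. The promoters of 3 members that rose are shown because they hold such repeats close to their starts. The windows run from 250 bases before to 50 after the start in RefSeq (GRCm38.p6), 5′ to 3′ on the gene's strand, at chr19:34583279-34583578 (plus strand) for Ifit3, chr4:156200769-156201068 (minus) for Isg15 and chr12:26456403-26456702 (minus) for Rsad2. Capitals mark matches to the element, taken as GAAA, any 2 bases and GAAA, on either strand.
Ifit3: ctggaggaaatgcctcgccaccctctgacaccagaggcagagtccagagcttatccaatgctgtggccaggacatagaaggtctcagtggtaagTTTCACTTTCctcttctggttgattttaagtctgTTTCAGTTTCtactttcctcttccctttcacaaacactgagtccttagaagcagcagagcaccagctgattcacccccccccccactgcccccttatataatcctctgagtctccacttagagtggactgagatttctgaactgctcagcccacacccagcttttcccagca
Isg15: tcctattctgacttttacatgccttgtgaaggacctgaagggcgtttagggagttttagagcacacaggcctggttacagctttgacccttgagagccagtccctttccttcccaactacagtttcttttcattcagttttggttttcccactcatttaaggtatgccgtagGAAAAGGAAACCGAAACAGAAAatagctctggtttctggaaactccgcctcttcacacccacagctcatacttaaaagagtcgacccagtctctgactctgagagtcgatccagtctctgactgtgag
Rsad2: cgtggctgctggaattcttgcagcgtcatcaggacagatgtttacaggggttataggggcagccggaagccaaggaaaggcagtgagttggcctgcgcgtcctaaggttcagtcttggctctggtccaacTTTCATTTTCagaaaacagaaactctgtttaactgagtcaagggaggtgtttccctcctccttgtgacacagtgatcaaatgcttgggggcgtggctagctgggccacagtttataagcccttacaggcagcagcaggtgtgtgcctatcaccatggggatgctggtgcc
Matches may overlap, as in Isg15. The element was searched after the data were seen. It matched the promoters of 8 of the 13 members whose promoter was listed, Bst2, Ddx58, Gbp2, Ifih1, Ifit3, Isg15, Rsad2 and Stat2, and those of 3.99% of the 27025 genes with a promoter of the same length listed. Members with and without a rise were among the 8. A match is a description of sequence only.

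Usp18, a protease that removes ISG15 from proteins and limits interferon signalling, read 8.62, 8.47 and 8.66 in SE-Cre HA cells and 5.15, 4.49 and 5.02 in SE-Cre cells, which was a log2 difference of 3.69 (SE 0.18, adjusted p = 1.9e-06). Ifit3, an RNA-binding antiviral protein gene, read 8.41, 8.41 and 8.44 against 5.54, 5.31 and 4.91 (log2 difference 3.17, SE 0.17, adjusted p = 2.65e-06). The groups of neither gene overlapped, as in 66.2% of all genes. Oasl2, of the oligoadenylate synthetase family, Ifih1, the RNA sensor MDA5, and Irf7, a transcription factor of the response, were detected only in SE-Cre HA cells, at least 3.45-fold, 1.66-fold and 1.36-fold higher. The Irf7 call was lost with scaling to a common median (adjusted p = 0.467) and with normal scores of the rank within arrays (adjusted p = 0.0613). Rsad2, which encodes viperin, rose by 2.02 (SE 0.16) and was detected on 1 of 3 SE-Cre arrays. The members that did not pass were Stat2 (-0.01) and Ddx58 (-0.39), and both were picked out after their values were seen. Ifit1, Mx1, Oas1a and Xaf1 failed the detection filter. On the HA-Sox4 and Sox4fl/fl arrays 10 of the 15 members lay wholly above and 1 wholly below, against 27.7% and 38.1% of all genes.

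Measured genes of the MAP kinase feedback list were also mostly higher. The list holds phosphatases, Sprouty family inhibitors and ETS factors that ERK signalling induces. Of 9 measured members 8 rose and none fell, with a median log2 difference of 1.12. The 8 include Etv4, Spry2 and Ier3, detected only in SE-Cre HA cells. Of the 4 members detected on all 6 arrays 3 rose and none fell, with a median of 1.46. With no background correction 7 of the 9 rose and the median was 0.55. Dusp6, the phosphatase that inactivates ERK, read 12.62, 12.64 and 12.69 in SE-Cre HA cells and 10.37, 10.49 and 10.18 in SE-Cre cells, which was a log2 difference of 2.30 (SE 0.12, adjusted p = 2.76e-06), with 3 of 3 probes alike. Phlda1 read 10.87, 10.87 and 10.79 against 7.79, 7.97 and 8.02 (log2 difference 2.91, SE 0.12). Etv4, an ETS factor gene, was detected only in SE-Cre HA cells, at least 5.9-fold higher, and its relative Etv5 rose by 2.55 (SE 0.26). Each of these 4 was higher on all 3 SE-Cre HA arrays than on any SE-Cre array. Groups did not overlap, in either direction, in 66.2% of all genes, and Etv4 had to differ, as it passed the filter through SE-Cre HA cells. Spry2 and Ier3 were dim, with bounds of 1.5-fold and 1.25-fold, and lost their calls with scaling to a common median (adjusted p = 0.0827 and 0.534). Under that scaling 6 of the 9 rose and the list median was 0.63. Dusp5, at -0.15, did not pass. Of the 9 members 8 also lay wholly higher in HA-Sox4 than in Sox4fl/fl cells, as did 27.7% of all genes.

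Genes known as STAT5 targets moved unequally. Of 11 measured members 6 rose and 2 fell, with a median log2 difference of 0.49. Over the 8 detected on all 6 arrays the counts were 4 and 1. Osm, the cytokine oncostatin M, read 8.57, 8.54 and 8.50 in SE-Cre HA cells and 6.36, 6.58 and 6.34 in SE-Cre cells, which was a log2 difference of 2.11 (SE 0.12, adjusted p = 3.58e-06). The survival kinase gene Pim1 rose by 1.52 (SE 0.19) by its brighter probe, and the other, at 0.07, did not pass (adjusted p = 0.846). Its paralog Pim2 and the feedback inhibitor gene Socs1 were detected only in SE-Cre HA cells, at least 2.28-fold and 2.18-fold higher. Bcl6, a repressor that STAT5 is known to hold down in pre-B cells, read 4.97, 4.84 and 4.85 in SE-Cre HA cells against 6.65, 7.03 and 6.67 in SE-Cre cells, which was a log2 difference of -1.90 (SE 0.14, adjusted p = 1.34e-05). Cish (-0.01) and Socs2 (-0.11), also chosen after their values were seen, did not pass. In the promoters 3 of the 8 STAT5 list members with a promoter, Bcl6, Cish and Socs3, matched the STAT site TTCNNNGAA, which 9.55% of all genes with a promoter listed held on either strand. Immediate early genes were mixed as well, with 3 of 11 higher and 4 lower, or 2 and 3 of the 9 detected on all 6 arrays. Fos rose by 1.72 (SE 0.13), Fosb was detected only in SE-Cre HA cells with a bound of 1.76-fold, and Klf2, a quiescence factor of lymphocytes, only in SE-Cre cells with a bound of 2.33-fold.

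**Figure D4:**
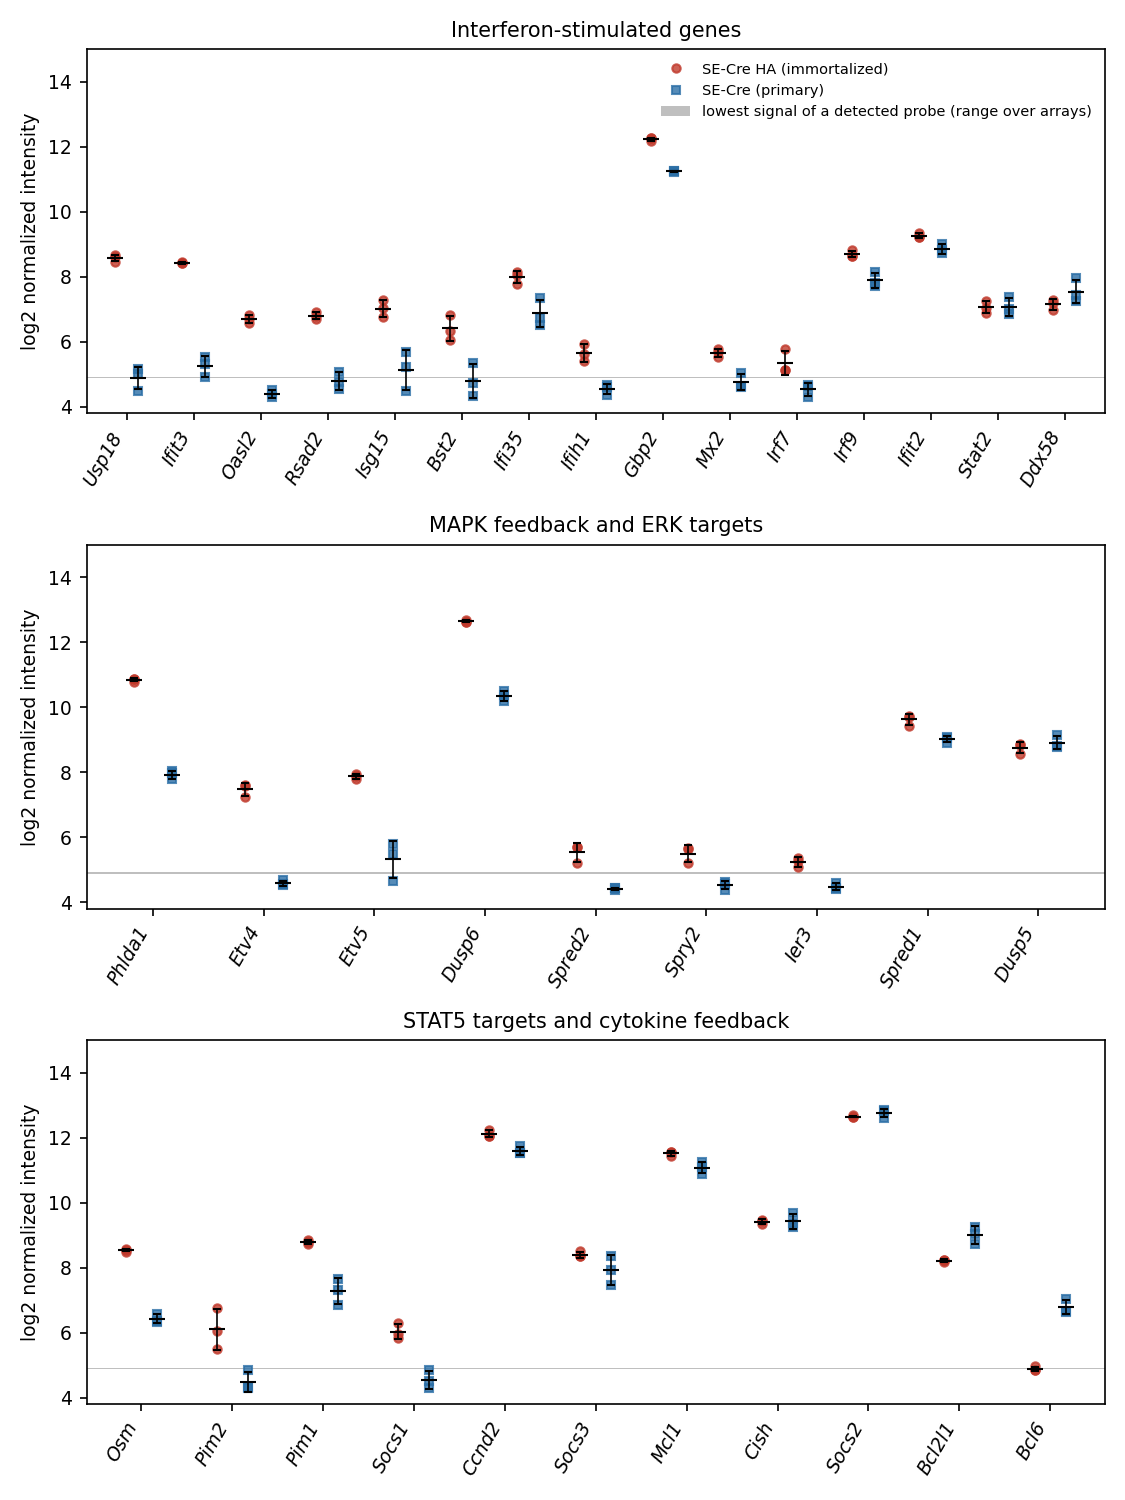
Log2 normalized intensity on each array for the measured members of the interferon-stimulated, MAPK feedback and STAT5 target lists, with SE-Cre HA arrays as circles on the left of each gene, SE-Cre arrays as squares on the right and bars for mean ± SD (n = 3), ordered by the difference. The members that passed with the circles higher were 13 of 15, 8 of 9 and 6 of 11, and Stat2, Ddx58 and Dusp5 stand at the right end of their panels.

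Cell cycle genes were mostly lower in the immortalized cells. Of 22 measured members 4 rose and 15 fell (background for lower calls 32.2%), with a median log2 difference of -0.65. Tyms, of thymidylate synthesis, read 10.57, 10.48 and 10.79 in SE-Cre HA cells and 12.41, 12.42 and 12.01 in SE-Cre cells. By this brightest probe the log2 difference was -1.66 (SE 0.15, adjusted p = 4.85e-05). Its other kept probes gave -1.05, -0.74 and -1.39, which passed, and 0.13, which did not (adjusted p = 0.582). Top2a, the topoisomerase of dividing cells, fell by 1.61 (SE 0.14) with 3 of 3 probes alike, and Aurkb, a mitotic kinase gene, by 1.28 (SE 0.12). Ccna2, the cyclin of S phase and G2, went the other way, with 9.47, 9.35 and 9.47 against 7.66, 7.97 and 7.89 (log2 difference 1.59, SE 0.13, adjusted p = 2e-05). The other 3 rises were Pcna, Mcm7 and Cdk6, picked out after their values were seen. Levels stayed high in both groups, with a median percentile of 86.8 in SE-Cre HA and 91.0 in SE-Cre cells. Mki67 and Ccnb1 were not analysed here.

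Inhibitors of cyclin-dependent kinases split by gene. Cdkn2a, which encodes p16Ink4a and Arf, read 9.09, 9.01 and 9.12 in SE-Cre HA cells and 4.81, 5.34 and 6.07 in SE-Cre cells, which was a log2 difference of 3.67 (SE 0.27, adjusted p = 1.55e-05), and the other 2 kept probes rose too. The probes were not assigned to either transcript. Its neighbour on chromosome 4, Cdkn2b, which encodes p15Ink4b, read 7.64, 7.75 and 7.78 against 5.10, 5.35 and 4.98 (log2 difference 2.58, SE 0.13, adjusted p = 2.4e-06). Cdkn1a, the p21 gene and a p53 target, rose by 1.30 (SE 0.12), with 3 of 3 probes alike. The groups did not overlap for any of these 3, as for 66.2% of all genes. Cdkn2c, which encodes p18Ink4c, fell by 1.13 (SE 0.11) by its brightest probe. Its other kept probes gave -1.59, which passed (adjusted p = 0.00012), and -0.09, which did not (adjusted p = 0.731). Of 7 measured members 3 thus rose and 2 fell.

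Among p53 targets 5 of 11 rose and 2 fell, against 26.1% and 32.2% of all genes, with a median log2 difference of 0.23. Of the 8 detected on all 6 arrays 4 rose and 1 fell. The targets that fell are not among those named here. Zmat3, which encodes an RNA-binding protein, read 11.77, 11.50 and 11.66 in SE-Cre HA cells and 9.45, 9.49 and 9.28 in SE-Cre cells, which was a log2 difference of 2.24 (SE 0.12, adjusted p = 3.51e-06). Phlda3, an inhibitor of Akt, rose by 2.34 (SE 0.29), Bbc3, the pro-apoptotic PUMA gene, by 1.64 (SE 0.15) and Ccng1, the cyclin G1 gene, by 0.93 (SE 0.11). Aen, a nuclease gene, was detected only in SE-Cre HA cells, with a bound of 1.55-fold. Its call was lost with scaling to a common median (adjusted p = 0.0547). Mdm2 did not pass, at -0.25, and Trp53 was not analysed here. Of the 8 BCL2 family genes 4 rose and 2 fell. Bcl2 itself, the survival gene, read 9.79, 9.71 and 9.73 in SE-Cre HA cells and 7.92, 7.13 and 7.13 in SE-Cre cells, which was a log2 difference of 2.35 (SE 0.21, adjusted p = 4e-05), and all 6 kept probes rose. Bid, a pro-apoptotic member, rose by 1.69 (SE 0.14), and Bad fell by 0.71 (SE 0.14).

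B lineage genes moved in both directions. Of 18 transcription factor genes 6 rose and 4 fell, and Pax5, the commitment factor, did not pass, at -0.49. Irf4, a factor of light chain rearrangement, read 9.51, 9.31 and 9.40 in SE-Cre HA cells and 8.20, 8.01 and 8.03 in SE-Cre cells, which was a log2 difference of 1.33 (SE 0.12, adjusted p = 3.98e-05). Lef1, a Wnt pathway factor, rose by 1.12 (SE 0.16) by its brightest probe. Another kept probe of Lef1, detected on no SE-Cre array, rose as well, and a further one gave 0.11 (adjusted p = 0.52). Ebf1, which specifies B cells, had probes that disagreed: the brighter gave -0.41 (adjusted p = 0.019) and the other 1.90 (adjusted p = 2.49e-05). The same was true of Id2, an inhibitor of E proteins, with 0.99 by its brightest probe and -0.61 by another. Il7r, the interleukin 7 receptor gene, gave -0.57 (SE 0.11) by its brightest probe, with 4 of 5 probes lower and 1 higher. Directions for these 3 genes are therefore uncertain.

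Of 13 genes of the pre-B cell receptor and its signalling, 2 rose and 4 fell. Zap70, a kinase better known from T cells, read 6.36, 6.88 and 6.27 in SE-Cre HA cells and 8.86, 8.83 and 9.09 in SE-Cre cells, which was a log2 difference of -2.42 (SE 0.18, adjusted p = 1.34e-05). The adaptor gene Lcp2, which encodes SLP-76, fell by 2.13 (SE 0.21), and Cd79b, a receptor subunit, by 1.23 (SE 0.12). Blnk gave -0.74 (SE 0.23, adjusted p = 0.0211) with overlapping groups, a call lost with no detection filter (adjusted p = 0.0558), and its other kept probe, at -0.20, did not pass. Blk, a Src family kinase gene, rose, with 8.35, 8.19 and 8.07 against 6.51, 7.13 and 7.22 (log2 difference 1.25, SE 0.19, adjusted p = 0.00076). Of 12 surface receptors 3 rose and 4 fell, among them Kit and Ly6d, and of the 9 detected on all 6 arrays 2 rose and 2 fell. Cd9, a tetraspanin gene, was detected only in SE-Cre cells, with a bound of 2.59-fold, while Cd24a, the heat stable antigen gene, rose by 1.63 (SE 0.22). Enpep, the BP-1 antigen gene, was dim in both, at 5.13 ± 0.08 in SE-Cre HA and 4.73 ± 0.09 in SE-Cre cells (SD, n = 3 each). Its log2 difference was 0.40 in the fit (adjusted p = 0.0154) and -0.20 with scaling to a common median.

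Receptor segment genes were few on the array. Trgv4, a T cell receptor gamma segment, was read at 13.28, 13.24 and 13.43 in SE-Cre HA cells and 11.26, 11.39 and 11.18 in SE-Cre cells, which was a log2 difference of 2.04 (SE 0.12, adjusted p = 4.43e-06). Trbv13-2, a beta segment, was detected only in SE-Cre cells, at least 7.44-fold lower in SE-Cre HA cells. It was also undetected on every HA-Sox4 and Sox4fl/fl array. In the end-joining list Lig4 rose by 1.14 (SE 0.27), and Xrcc6, the Ku70 gene, fell by 1.01 (SE 0.11) with 3 of 3 probes alike. Among antigen presentation genes, H2-K1, a class I heavy chain gene, read 12.41, 12.48 and 12.41 against 10.53, 10.89 and 10.85 (log2 difference 1.68, SE 0.13), while Tap1, a peptide transporter gene, fell by 1.32 (SE 0.13). Of 7 class II pathway genes 2 rose and 4 fell. Cd74, the invariant chain gene, rose by 1.92 (SE 0.19), and the peptide exchange genes H2-DMa and H2-DMb2 fell by 1.15 and 1.27 (SE 0.13 and 0.16). The other kept probe of H2-DMb2, at -0.08, did not pass.

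Genes of growth and metabolism gave smaller counts. Of 12 genes of the MYC family and ribosome biogenesis 7 rose and 2 fell, with a median log2 difference of 0.53, and 5 rose and 1 fell of the 9 detected on all 6 arrays. Rrs1, of ribosome assembly, rose by 2.38 (SE 0.15), Polr1b, a subunit of RNA polymerase I, by 1.37 (SE 0.16), and Dkc1, the dyskerin gene, was detected only in SE-Cre HA cells with a bound of 3.14-fold. Mycl was detected only in SE-Cre cells, with a bound of 1.43-fold, and Myc did not pass, at 0.27. In the integrated stress response list 2 of 10 rose and 6 fell, with a median of -0.39. Trib3, a pseudokinase gene, read 7.20, 6.89 and 7.34 in SE-Cre HA cells and 9.28, 9.68 and 9.45 in SE-Cre cells, which was a log2 difference of -2.32 (SE 0.16, adjusted p = 1.06e-05), and Ddit3, which encodes CHOP, fell by 1.76 (SE 0.17). Atf4, the factor that drives that list, rose by 1.11 (SE 0.11) by its brighter probe, whereas the other, at -0.11, did not pass (adjusted p = 0.472). Also higher was Slc3a2, an amino acid transporter subunit, by 1.78 (SE 0.16). Of 6 heat shock genes 4 rose and 1 fell, led by Hsph1, a co-chaperone gene, at 1.03 (SE 0.18). One of the 4 was Hspd1, whose direction is uncertain, since its probes gave 0.62 (adjusted p = 0.0019) and -0.60 (adjusted p = 0.00776). Glycolysis was split, with 5 of 16 higher and 5 lower. Aldoc rose by 1.62 (SE 0.25), and the transporter gene Slc2a3 fell by 1.60 (SE 0.15). Of 10 genes of DNA methylation and Polycomb 1 rose and 5 fell. Eed rose by 1.23 (SE 0.12), Dnmt3b fell by 1.02 (SE 0.16) and the maintenance methyltransferase gene Dnmt1 by 0.74 (SE 0.11).

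Adhesion genes split 5 higher and 6 lower of 12, or 3 and 5 of the 9 detected on all 6 arrays. Itga5, the fibronectin receptor subunit gene, read 4.37, 4.37 and 4.38 in SE-Cre HA cells and 6.89, 6.89 and 6.74 in SE-Cre cells, and it was detected only in SE-Cre cells, with a bound of 3.86-fold. Icam2 fell by 0.99 (SE 0.14). Itga4, a subunit of the VLA-4 integrin, gave 1.84 by its brightest probe and -0.78 by another, so its direction is uncertain. Pecam1, listed as an endothelial marker and also known from early B cells, rose by 1.85 (SE 0.14) with 3 of 3 probes alike. Of 9 reference genes 2 rose and 3 fell. Rpl13a rose by 1.02 and Tubb5 fell by 0.85, and Ppia was at -0.38, while the calls of Tbp (higher) and Hprt (lower) rest on probes that disagreed in direction. Actb (0.16) and Eef1a1 (-0.20) did not pass, and these and Ppia were picked out after their values were seen.

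The HA-Sox4 and Sox4fl/fl arrays gave a second immortalized and primary pair, which shares array sets and cell kinds with the first but no array. Its groups differ in the signal of the brighter Sox4 probe, which is near background in HA-Sox4 cells. Whether that probe can read the HA-Sox4 construct is not known. Of the 2324 genes called higher in SE-Cre HA than in SE-Cre cells, 1625 lay wholly above in HA-Sox4 cells, 137 wholly below and 562 overlapped. Of the 2862 called lower, 2069 lay wholly below, 168 wholly above and 625 overlapped. Over all genes tested, 27.7% lay wholly above and 38.1% wholly below in the second pair, and 4.43% lay wholly in opposite directions in the 2 pairs. Those counts are a description, since the second pair carries the same array difference. The examples that follow were picked out after their values were seen, and the first value of each is from the 6 arrays normalized together and the second from all 12. Values in the pairs were close for Cpne2 (3.65 and 3.62) and Slc5a9 (-5.04 and -4.84). Gfi1 was nearer 0 in the second (-5.01 and -0.45). Gfi1b, at 3.57 in the first pair, was at -0.22 with overlapping groups in the second.

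**Figure D5:**
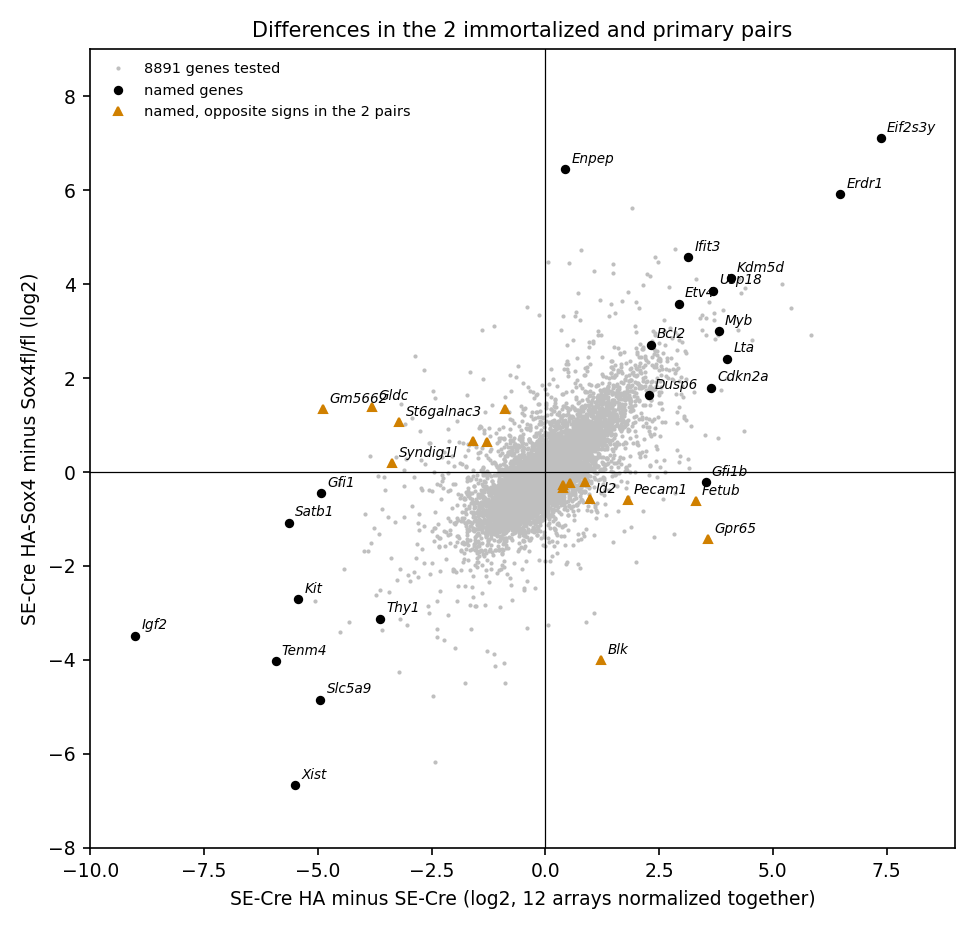
Log2 difference between SE-Cre HA and SE-Cre cells (horizontal axis) against that between SE-Cre HA-Sox4 and Sox4fl/fl cells (vertical axis) for the 8891 genes tested, both from the 12 arrays normalized together, with selected named genes in black and named genes whose 2 pairs moved in opposite directions as orange triangles. Differences of genes undetected in a group are plotted as measured, and their size depends on the background. Xist, Slc5a9 and Eif2s3y lie far from 0 on both axes, Gfi1 and Gfi1b lie near 0 on the vertical axis, and Blk lies at 1.23 and -4.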

How the data were processed

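Total RNA of progenitor B cells, over 95% pure and biotin-labelled per the labels, was read on Illumina bead arrays, 3 in each of 4 groups. The deposited table gives for each array a linear, not normalized intensity and a detection p-value per probe, per the file headers. A second deposited table holds intensity values that, from the values themselves, were quantile-normalized by the authors within each set of 6 arrays, and it served as an alternative. The submitters' processing notes name R 3.0.1, and the sources used here do not name the scanner software. The number of arrays limits the precision. Gene symbols came from the platform annotation (34885 probes with 1 symbol, 18 with several and 10378 with none).

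The 6 arrays were corrected with normexp using the negative controls that the detection p-values imply, offset 16, and quantile-normalized (neqc, limma 3.58.1, R 4.3.3). Probes detected at p under 0.05 on at least 3 arrays were kept (16686 of 45281). A linear model with moderated variance was fitted over them, with Benjamini-Hochberg adjustment over all kept probes and a threshold of 0.05, and each of 8891 genes took the values of its brightest kept probe. All adjusted p-values in the text are from that limma fit. A gene detected on all arrays of a group and on none of the other has its fold given as a bound against the lowest signal of a detected probe on each array.

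Named genes were the title genes, the 15 highest-ranking genes detected in only 1 group, for each group, the 12 largest rises and 12 largest falls among genes detected on all 6 arrays, and of each list up to 4 members by p, members detected in 1 group only and every member of a list of at most 6. Names outside this rule were chosen after their values were seen. The comparison and the lists were chosen with earlier results of these data known. Motifs were searched in RefSeq promoters of GRCm38.p6. The HA-Sox4 and Sox4fl/fl values come from all 12 arrays normalized together. The fit was tested on simulated data. Alternatives covered background, scaling, filter, variance model, probe choice, a replicate block and each array left out. Replicate numbers were not treated as pairs, since deviations of same-numbered arrays correlated at 0.0215, -0.00881 and -0.00272. Some members of the gene lists are not reported here.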

Additional observations from a re-analysis of the deposited data

Results flagged for a closer look

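Of 187 named genes, 16 (8.56%) moved wholly one way between SE-Cre HA and SE-Cre cells and wholly the other way between HA-Sox4 and Sox4fl/fl cells, as did 4.43% of all genes tested. The difference between the pairs was not tested. Unless stated otherwise, values here are log2 differences with the 12 arrays normalized together. The first is for SE-Cre HA over SE-Cre and the second for HA-Sox4 over Sox4fl/fl. The Src family kinase gene Blk had 1.23 and -4. Among genes detected in only 1 of the first groups, Gpr65 had 3.58 and -1.43, Fetub 3.3 and -0.62, Aen 0.875 and -0.211, Gm5662 -4.89 and 1.33, and St6galnac3 -3.21 and 1.06. The first values of these 5 are set against background signal and give a direction, not a size. Gldc, of glycine cleavage, had -3.81 and 1.39, and Syndig1l -3.36 and 0.185. Slc2a3, a glucose transporter gene, had -1.59 and 0.655, Mxi1, a MYC antagonist gene, -0.892 and 1.34, and H2-DMb2 -1.28 and 0.645. Pecam1 had 1.81 and -0.595, and Id2, whose probes disagree, 0.976 and -0.58. Smaller values were those of the immunoproteasome genes Psmb10, at 0.396 and -0.35, and Psmb9, at 0.392 and -0.273, and of Rpl4, at 0.532 and -0.242. With this normalization the Psmb9 difference in the first pair did not pass in limma (adjusted p = 0.0509). Rpl4 is given by its brightest probe, and its other kept probe gave 2.80 in the first pair with the 6 arrays normalized together (adjusted p = 2.21e-06). Groups of 3 arrays were not examined for outlying arrays.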

How the results depend on the processing

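Array set and cell kind cannot be told apart, and the samples' independence is not given. Detection of Eif2s3y, Kdm5d and the brightest Xist probe divided the arrays along the same line in both pairs. The labels give no sex, and a difference in sex could not be told apart from cell kind or array set. With at least 2-fold required, 979 genes were higher and 811 lower in SE-Cre HA cells. With detection at p under 0.01, 142 genes were detected only in SE-Cre HA and 111 only in SE-Cre cells. With 1 array left out at a time, 1951 to 2346 genes were higher and 2429 to 2805 lower, and 315 to 353 and 251 to 349 were detected in only SE-Cre HA or only SE-Cre cells. A fit with the replicate block gave 2257 higher and 2733 lower, and 183 of the 187 named genes had the same direction and side of the threshold. Scaling to a common median gave 2146 higher and 3211 lower, a median log2 difference of -0.145 over all genes, and reversed the dim genes Enpep (-0.1974) and Ighg1 (-0.07588). Taking the mean of a gene's probes reversed Ebf1 (0.7466), Hprt (0.1448), Lyz2 (-1.091) and Tbp (-0.05541). Other settings reversed no named gene, and each left 175 or more of those it kept on the same side, except detection on every array, which kept 119. In most of these genes the cause was not tested, but the probes of Ebf1, Hprt and Tbp disagree in direction. Lyz2 gave 0.22 (adjusted p = 0.342) by its brightest probe and -2.40 (adjusted p = 4.62e-06) by its other kept probe. The Psmb9, Psmb10, Hif1a, Cd8b1, Blnk, Ebf1 and Enpep calls were lost with single arrays left out. The files name no slide or scan, so no such block was run.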

Other observations

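Transcripts of the mitochondrial genome stood above those of the autosomes and the X chromosome. Of 8 such genes tested, 5 were higher in SE-Cre HA than in SE-Cre cells and none lower by limma, against 26.1% and 32.2% of all genes. The median log2 difference of the 8 was 0.77. The 5 include ND6, which passed the detection filter through SE-Cre HA cells and so had to differ, and the count is a description. Besides ND6, detected only in SE-Cre HA cells, the complex I subunit gene ND4L and the ATP synthase subunit gene ATP6 were higher, by 2.14 and 1.15, whereas CYTB, at -0.20, did not pass. The 3 Y-linked genes had a median of 4.05. Among them Eif2s3y and Kdm5d were detected only in SE-Cre HA cells and had to differ, so the size of this median depends on the background. Medians of the autosomes and the X chromosome lay between -0.15 and 0.05. Between HA-Sox4 and Sox4fl/fl cells, the median of the mitochondrial genes was 0.759.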
